A study of Homo sapiens with 12 samples.

Results

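The 10 genes described here belong to the cellular response to low oxygen. They are HIF1A, EPAS1, VEGFA, CA9, CA12, ADM, NDRG1, EGLN3, PDK1 and P4HA1, and they were chosen by name from the 60666 genes listed for Huh7 cells. A hypoxia-inducible factor (HIF) is a pair of proteins, an oxygen-labile alpha subunit (HIF-1alpha from HIF1A or HIF-2alpha from EPAS1) and the stable beta subunit ARNT. When oxygen is present, prolyl hydroxylases of the EGLN family mark the alpha subunit, VHL binds the mark and the protein is degraded. When oxygen falls, the alpha subunit lasts, enters the nucleus with ARNT and switches on genes for blood vessel growth, glucose use, acid export and collagen folding. In liver tumours this response is known for its ties to vessel growth and to a change in fuel use. Since HIF is set mostly at the protein level, an RNA measurement gives the transcripts of the factors and of their targets, and not the amount of active factor.

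RNA was sequenced from Huh7, a human liver cancer cell line, in 2 groups of 3 libraries. Control cells carried a lentiviral control construct, and shFAM111B cells carried a single lentiviral short hairpin RNA against FAM111B. Both groups were selected with puromycin and kept in high-glucose medium with serum in an ordinary CO2 incubator. No library was labelled as exposed to low oxygen, so the comparison asks how the genes stood with less FAM111B under normal culture. Nothing in the labels says that the 3 libraries of a group came from separate cultures, and the p-values measure only the spread between these libraries. Libraries of a further line, Hep3B, were not analysed here. Levels are in TPM (reads divided by transcript length and scaled to a common total per library), a unit that keeps no sequencing depth, so the depth behind each value is unknown.

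The shFAM111B construct, shown because every comparison rests on this single sequence, had a target of 19 bases.
shFAM111B: CTGCCTAGTGATTCTCATT

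FAM111B, the targeted gene, stood at 7.84, 8.29 and 7.99 TPM in control replicates 1 to 3 and at 0.96, 1.13 and 0.84 TPM in shFAM111B replicates 1 to 3. All shFAM111B libraries lay far below all controls, as their labels say. The level was 12.2% of control, and the log2 fold change was -2.20 (SE 0.113; adjusted p = 6.09e-06, limma with Benjamini-Hochberg adjustment).

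Some libraries stood apart in their makeup. Genes of ribosomal RNA summed to 2850, 2489 and 1056 TPM in controls and to 35926, 53091 and 2567 TPM in shFAM111B replicates 1 to 3, so shFAM111B replicates 1 and 2 held far more of it. Genes of the mitochondrial chromosome summed to 201302, 201464 and 196140 TPM in controls and to 76826, 78883 and 73237 TPM in shFAM111B cells, a shift that all libraries of the group shared. Each fold change below was also computed without shFAM111B replicates 1 and 2. That leaves 1 shFAM111B library, assumed to vary like the controls, so the differences are given as values and not as a test. For the genes called lower below, they were -2.18 for HIF1A, -1.56 for EPAS1, -1.33 for VEGFA, -2.65 for CA12, -1.41 for PDK1 and -1.31 for P4HA1.

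Liver markers were present in both groups. All 9 hepatocyte markers passed the filter, led by AFP, and they summed to 25406, 25703 and 25277 TPM in controls and to 41192, 39849 and 44875 TPM in shFAM111B cells. Of markers of other cells, the endothelial genes CDH5, VWF and TEK stood at 0.04 TPM or less in every library, and the 4 endothelial markers summed to between 1.26 and 2.29 TPM in controls and between 2.15 and 3.49 TPM in shFAM111B cells, mostly from PECAM1. Fibroblast markers (3 of 6 tested, led by COL1A2) summed to 10.4, 11.8 and 9.58 TPM in controls and to 15.8, 21.0 and 15.1 TPM in shFAM111B cells. Leukocyte markers (3 of 6 tested) summed to 280.2, 287.7 and 281.4 TPM in controls and to 333.6, 311.8 and 342.9 TPM in shFAM111B cells, nearly all of it LYZ, while the pan-leukocyte gene PTPRC reached at most 2.39 TPM. The part of these shifts in the results below was not tested.

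HIF binds DNA at hypoxia response elements, whose core is written ACGTG or GCGTG. Both were searched on both strands in the 250 bases before each RefSeq start (GRCh38.p14), where a CACGTG would count on both strands. Of the 10 genes, 8 matched an entry with 10 windows in all, while the set of windows searched held no match for VEGFA or NDRG1. A core was found for 7 of these 8 genes, and ACGTG for 3 of them. Of all 35116 RefSeq windows of that length, 18.5% held ACGTG, 32.2% held GCGTG and 43.2% held either. These shares count windows, while the counts before them are of genes, some with more than a single window. The counts and shares are therefore not on the same footing. The 30 bases around each core are shown because HIF reaches its targets through these letters. Capitals mark the core, which reads CACGT or CACGC where it lies on the opposite strand. A match is a description of the letters and not a bound site.
PDK1: ccctgctgcccgcCACGTccctCACGTacc
CA9: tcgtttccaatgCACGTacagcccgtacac
P4HA1: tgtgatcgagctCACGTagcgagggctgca
CA12: gcggatctcaccCACGCctgccagcagctc
ADM: gagcaggagcgcGCGTGgctgaggaaagaa
EPAS1: gggcctgccggcGCGTGcccgcccacacac
HIF1A: tggctgagagcgGCGTGggctggggtgggg

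The PDK1 stretch lies at chr2:172556060-172556089 on the plus strand, with its cores 17 and 8 bases before the start, and it was the window with more than a single core. The CA9 core lies 18 bases before its start (chr9:35673898-35673927, plus strand). The P4HA1 core lies 86 bases before its start (chr10:73096935-73096964, minus strand). These are the 3 genes with ACGTG. The other stretches hold GCGTG, at 234 bases for CA12 (chr15:63382063-63382092, minus strand), 101 bases for ADM (chr11:10304960-10304989, plus strand), 117 bases for EPAS1 (chr2:46297278-46297307, plus strand) and 204 bases for HIF1A (chr14:61695297-61695326, plus strand). No core was found in the EGLN3 window, nor in the further window of PDK1 (chr2:172555123-172555372) or of HIF1A (chr14:61697462-61697711). The starts here are those of RefSeq. The gene spans given below are from GENCODE, and all the printed stretches but that of HIF1A lie inside them.

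As a group, most of the hypoxia response genes were lower in shFAM111B cells. A gene was tested when it reached 1 TPM in at least 3 libraries, which 9 of the 10 genes and 14394 genes overall did, and it was called when the fold change was at least 2 with P under 0.05 in limma. HIF1A, EPAS1, VEGFA, CA12, PDK1 and P4HA1 were called lower, 0 were called higher, and ADM, NDRG1 and EGLN3 were not called. The background was 23.7% of tested genes called lower (3409 genes) and 6.82% called higher (981 genes). At an adjusted p under 0.05 with no limit on fold, 7 of the 9 were lower, ADM being the further one, against 50.9% of all tested genes. Every control library lay above every shFAM111B library for the same 7 genes, against 52.8% of all tested genes. The median log2 fold change of the 9 tested genes was -1.25, beside -0.36 for all tested genes. The balance of calls across all genes moved with the scaling, from 981 higher and 3409 lower to 2031 higher and 1799 lower with median-of-ratios scaling, under which the median tested gene was at 0.03 in place of -0.36. With that scaling, and also with upper-quartile scaling or quantile normalization, 3 of the hypoxia response genes were called lower: HIF1A, EPAS1 and CA12. Across all genes, lower calls were 1910 with upper-quartile scaling and 1849 with quantile normalization.

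**Figure D1:**
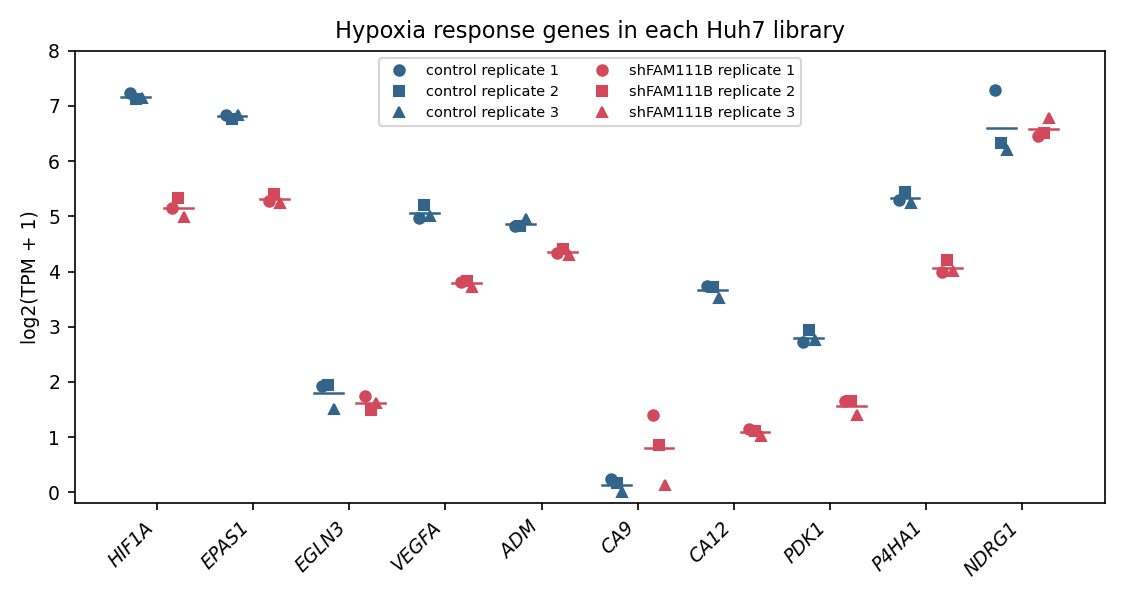
Levels of the 10 hypoxia response genes on a log2(TPM + 1) axis, with a point for each of the 3 control and 3 shFAM111B libraries and a line for the group mean. HIF1A, EPAS1, VEGFA, CA12, ADM, PDK1 and P4HA1 show separate groups, while NDRG1, EGLN3 and CA9 overlap, NDRG1 with a high control replicate 1 at 156.0 TPM.

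Transcripts of both alpha subunits were lower in shFAM111B cells. HIF1A, which encodes the oxygen-labile subunit of HIF-1 (ENSG00000100644, chr14:61695513-61748259, plus strand), stood at 150.3, 139.1 and 139.7 TPM in controls and at 34.6, 39.2 and 30.8 TPM in shFAM111B cells. The groups were wide apart, with a mean of 143.0 ± 6.29 TPM against 34.9 ± 4.21 TPM (SD, n = 3 each). Expression was 24.4% of control, and the log2 fold change was -2.01 (SE 0.0901; adjusted p = 4.11e-06, limma). Tested genes with a longest transcript of like length, within 0.25 on the log2 scale of 3956 nt for HIF1A, had a median of -0.62. Its antisense gene HIF1A-AS1, which shares 117 exonic bases, reached at most 1.22 TPM.

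EPAS1, the alpha subunit of HIF-2 (ENSG00000116016, chr2:46293667-46386703, plus strand), fell less. It stood at 113.4, 107.5 and 112.8 TPM in controls and at 37.7, 41.1 and 37.0 TPM in shFAM111B cells, and the 3 values within each group were close together. The mean went from 111.2 ± 3.23 to 38.6 ± 2.18 TPM (SD, n = 3 each), 34.7% of control, with a log2 fold change of -1.50 (SE 0.0581; adjusted p = 2.99e-06, limma). With the trend of fold change on length and expression removed, EPAS1 was at -0.92 and no longer called, while HIF1A stayed called at -1.58.

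Because both alpha subunits share a library, their ratio can be read within each library and hardly depends on the scaling. The log2 ratio of HIF1A to EPAS1 was 0.40, 0.37 and 0.31 in controls and -0.12, -0.068 and -0.26 in shFAM111B cells. HIF1A was the higher of the pair in every control and the lower in every shFAM111B library. The difference was -0.51 (exact permutation test, two-sided, p = 0.1, which is the smallest p that 3 against 3 allows). For HIF1A against its partner ARNT the difference was -1.11 with the same exact p = 0.1.

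Around the factors, the other oxygen-sensing genes went both ways. Of 14 listed genes besides the members, 12 were tested, 2 were called higher and 5 lower, and the median was -0.95. ARNT itself was at 17.8 and 9.07 TPM, with a log2 fold change of -0.90 just short of the fold threshold (adjusted p = 5.13e-05, limma). The coactivator EP300, which acetylates histones at HIF targets, went from 19.0 ± 2.66 to 1.08 ± 0.195 TPM (SD, n = 3 each; log2 fold change -3.26). CUL2, the cullin scaffold of the VHL ubiquitin ligase, had a log2 fold change of -1.81, and VHL, the part that recognises the hydroxylated alpha subunit, had one of -1.23. Other parts of the same ligase were called higher, the adaptor ELOB with 1.39 (112.8 to 299.5 TPM) and the RING subunit RBX1 with 1.07. VHL was not called with median-of-ratios or upper-quartile scaling, quantile normalization or the length and expression trend removed. ELOB and RBX1 were not called with that trend removed, and RBX1 was also not called with rescaling to nuclear protein-coding genes. The further paralogs HIF3A and ARNT2 did not pass the filter on low values.

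EGLN3, the prolyl hydroxylase PHD3 and itself a HIF target (ENSG00000129521, chr14:33924231-34462774, minus strand), was low in all libraries. It stood at 2.78, 2.84 and 1.86 TPM in controls and at 2.37, 1.80 and 2.06 TPM in shFAM111B cells. The groups overlapped, with a log2 fold change of -0.17 (SE 0.163; adjusted p = 0.366, limma). Its paralog EGLN1 (PHD2), the main oxygen sensor in most cells, was called lower, from 48.9 ± 3.40 to 18.4 ± 0.959 TPM (SD, n = 3 each; log2 fold change -1.36). The EGLN1 call was lost with median-of-ratios or upper-quartile scaling, quantile normalization or the length and expression trend removed. EGLN2 (PHD1) was at 28.0 and 36.3 TPM, with a log2 fold change of 0.36 that did not reach the fold threshold. Relative to EGLN1, EGLN3 (as a log2 ratio) was higher in each shFAM111B library than in each control, by 1.19 (exact permutation p = 0.1, the smallest possible). Without the length and expression trend, the log2 fold changes lay closer together, at 0.096 for EGLN3 and -0.56 for EGLN1.

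**Figure D2:**
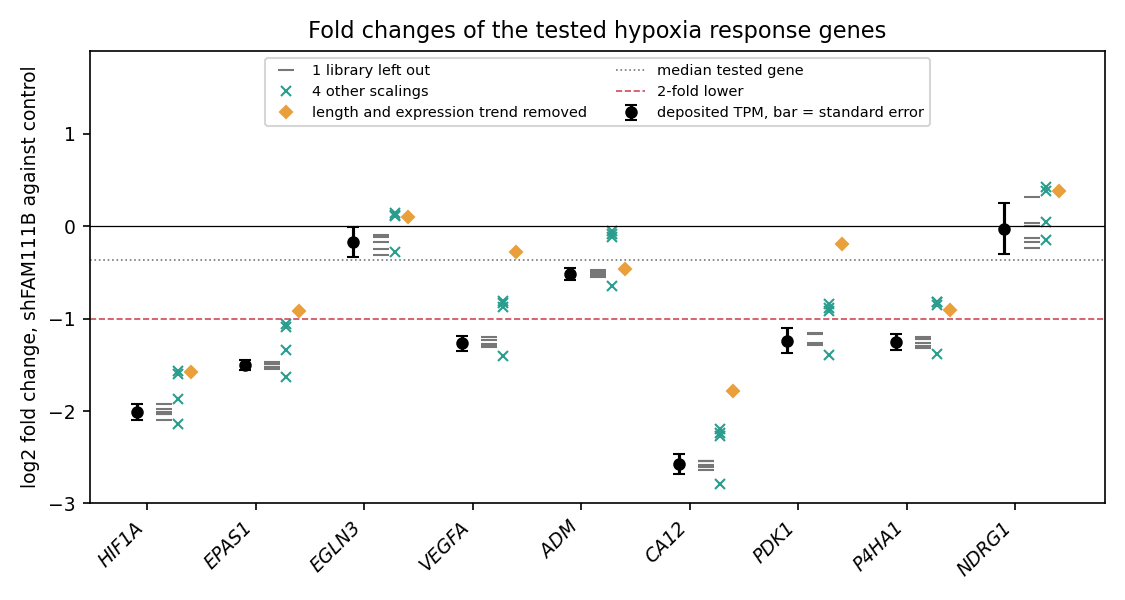
Log2 fold changes of the 9 tested hypoxia response genes, shFAM111B against control on the log2(TPM + 1) scale, with the standard error from limma, beside the values without 1 library, under 4 other scalings and with the length and expression trend removed. HIF1A and CA12 stay below -1 throughout, and NDRG1 and EGLN3 lie on both sides of 0.

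VEGFA, the main secreted growth factor for blood vessels (ENSG00000112715, chr6:43770184-43786487, plus strand), was lower in shFAM111B cells. It stood at 30.5, 35.8 and 31.0 TPM in controls and at 13.1, 13.3 and 12.2 TPM in shFAM111B cells, and the groups did not overlap. The mean went from 32.4 ± 2.92 to 12.9 ± 0.565 TPM (SD, n = 3 each), 39.7% of control, with a log2 fold change of -1.27 (SE 0.0835; adjusted p = 1.47e-05, limma). Its longest transcript is long (12167 nt), and genes of like length had a median of -0.94. With the length and expression trend removed, VEGFA was at -0.28. An antisense gene, AL136131.3, shares 188 exonic bases with it and was listed at 0 in all libraries but shFAM111B replicate 2, where it had 11.4 TPM. Whether the deposited values were counted by strand is not given in the sources used here, so reads of such pairs cannot be told apart.

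Other members of the VEGF family moved the opposite way. VEGFB, a ligand of the receptor FLT1, went from 17.6 ± 1.56 to 51.6 ± 10.1 TPM (log2 fold change 1.49), and PGF, placental growth factor, from 2.02 ± 0.114 to 15.8 ± 1.47 TPM (log2 fold change 2.47; SD, n = 3 each). Both were called higher, whereas VEGFC was listed at 0 in every library. Within libraries, the log2 ratio of VEGFA to VEGFB was 0.82, 0.85 and 0.86 in controls and -1.78, -1.67 and -2.28 in shFAM111B cells. VEGFA was thus above VEGFB in all controls and below it in all shFAM111B libraries, a difference of -2.75 (exact permutation p = 0.1, the smallest possible). The longest transcript of VEGFB is much shorter (1380 nt) than that of VEGFA. Removal of the length and expression trend brought the log2 fold changes closer together, to -0.28 for VEGFA and 1.30 for VEGFB. Among all 10 listed angiogenic genes besides VEGFA, 7 were tested, 2 were called higher and 3 lower, with a median of 0.54. The 3 lower genes were NRP1, a VEGF co-receptor (-1.41), EDN1, the vasoconstrictor endothelin-1 (-1.36), and PDGFB, a growth factor for pericytes (-1.31), which passed the filter only through its controls. The VEGF receptors KDR and FLT1 were at 0.06 TPM or less throughout.

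ADM, which encodes the vessel-dilating peptide adrenomedullin (ENSG00000148926, chr11:10304680-10307397, plus strand), was lower by less than the fold threshold. It stood at 27.2, 27.2 and 30.0 TPM in controls and at 19.2, 20.1 and 18.8 TPM in shFAM111B cells. The groups did not overlap, and the log2 fold change was -0.52 (SE 0.0689; adjusted p = 0.000408, limma), 68.8% of control. Genes of its length had a median of -0.03. With median-of-ratios scaling ADM was at -0.08 (adjusted p = 0.329, limma), and with quantile normalization at -0.056 (adjusted p = 0.495, limma). Its receptor is made of CALCRL with a RAMP protein. CALCRL did not pass the filter, at 0.57 TPM or less, while RAMP1, which pairs with CALCRL to form the CGRP receptor, went from 7.26 ± 0.608 to 64.4 ± 9.41 TPM (SD, n = 3 each; log2 fold change 2.98, the highest of the listed genes). RAMP2, which turns CALCRL into an adrenomedullin receptor, had 0.91, 3.89 and 4.67 TPM in controls and 14.2, 5.97 and 10.1 TPM in shFAM111B cells (log2 fold change 1.49; adjusted p = 0.022, limma). ADM2, the related peptide intermedin, was at 2.90 and 2.31 TPM with overlapping groups. Of the 5 listed genes of the axis besides ADM, 3 were tested, 2 were called higher and 0 lower, with a median of 1.49.

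CA12 had the largest fall of the hypoxia response genes. It encodes a membrane carbonic anhydrase that hydrates CO2 outside the cell (ENSG00000074410, chr15:63321378-63382161, minus strand). It stood at 12.4, 12.3 and 10.6 TPM in controls and at 1.22, 1.15 and 1.03 TPM in shFAM111B cells. The level in shFAM111B cells was 9.67% of control (11.7 ± 1.02 against 1.13 ± 0.0961 TPM, SD, n = 3 each), and the log2 fold change was -2.57 (SE 0.113; adjusted p = 3.87e-06, limma). Genes of like length had a median of -0.84, and CA12 was called in every alternative run, from -3.26 to -1.78.

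CA9, the other membrane carbonic anhydrase and a widely used marker of hypoxic tumour cells (ENSG00000107159, chr9:35673856-35681159, plus strand), was close to absent. It stood at 0.18, 0.13 and 0 TPM in controls and at 1.65, 0.82 and 0.10 TPM in shFAM111B cells, so the groups overlapped and it did not pass the filter. It shares 643 exonic bases with ARHGEF39 on the opposite strand, which stood at 12.5, 12.9 and 13.7 TPM in controls and at 23.9, 22.0 and 21.9 TPM in shFAM111B cells. The part of ARHGEF39 reads in the CA9 values was not tested. The log2 ratio of CA12 to CA9 on the log2(TPM + 1) scale differed by -3.24, or by -5.14 with a pseudocount of 0.1, and carries the error of a gene near 0.

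Of the other 12 listed acid-base genes, 8 were tested, 0 were called higher and 3 lower, with a median of -0.74. The bicarbonate importer SLC4A7 had a log2 fold change of -2.19, the cytosolic carbonic anhydrase CA2 one of -1.39 (65.7 to 24.5 TPM), and the lactate transporter SLC16A1 one of -1.33. SLC16A3, the lactate exporter usually named as the HIF target of the pair, was at 24.4 ± 4.37 and 32.0 ± 2.95 TPM (SD, n = 3 each; log2 fold change 0.39, not called). CA13 was at 1.41 and 2.27 TPM and was not called, and CA14 did not pass the filter.

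PDK1, a kinase that switches off pyruvate dehydrogenase and so limits the conversion of pyruvate to acetyl-CoA (ENSG00000152256, chr2:172555373-172608669, plus strand), was lower in shFAM111B cells. It stood at 5.58, 6.68 and 5.74 TPM in controls and at 2.14, 2.15 and 1.63 TPM in shFAM111B cells, with no overlap. The log2 fold change was -1.24 (SE 0.131; adjusted p = 0.000124, limma), and 32.9% of the control level was measured. PDK1 has the longest transcript of the 10 genes (14193 nt), genes of like length had a median of -0.92, and with the length and expression trend removed it was at -0.19. An antisense gene with 445 shared exonic bases, AC078883.1, stood between 0.59 and 1.05 TPM in controls and at 0.26 TPM or less in shFAM111B cells.

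Its paralog PDK2 was at 3.32 and 2.68 TPM with overlapping groups (log2 fold change -0.23, not called), and PDK3 and PDK4 did not pass the filter. The log2 ratio of PDK1 to PDK2 was 0.63, 0.61 and 0.87 in controls and -0.43, -0.23 and -0.25 in shFAM111B cells, so PDK1 was above PDK2 in all controls and below it in all shFAM111B libraries. The difference was -1.01 (exact permutation p = 0.1, the smallest possible). After the length and expression trend was removed, the log2 fold changes lay closer together, at -0.19 for PDK1 and 0.18 for PDK2. Parts of the pyruvate dehydrogenase complex itself, the target of PDK1, were also called lower, namely DLAT (80.7 to 19.3 TPM, log2 fold change -2.01), DLD (119.4 to 44.1 TPM, -1.42) and PDHX (24.7 to 11.1 TPM, -1.10). PDHA1, the subunit that PDK1 phosphorylates, was at 110.8 ± 16.5 and 187.8 ± 9.98 TPM (SD, n = 3 each; log2 fold change 0.76, not called). PDHA1 was called higher with median-of-ratios scaling (1.22), upper-quartile scaling (1.18) or the length and expression trend removed (1.05). PDHX was not called in any of these settings or with quantile normalization, and DLD was not called with median-of-ratios scaling. In this list 8 of 10 genes besides PDK1 were tested, 0 were called higher and 3 lower, with a median of -0.81.

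P4HA1, the catalytic subunit of the prolyl hydroxylase that lets collagen fold (ENSG00000122884, chr10:73007217-73096974, minus strand), was lower in shFAM111B cells. It stood at 38.4, 42.5 and 36.7 TPM in controls and at 15.0, 17.4 and 15.2 TPM in shFAM111B cells, and the lowest control was above the highest shFAM111B library. The mean went from 39.2 ± 2.99 to 15.9 ± 1.35 TPM (SD, n = 3 each), 40.5% of control, with a log2 fold change of -1.25 (SE 0.0873; adjusted p = 1.84e-05, limma). Its length was below the median of tested genes (2844 against 3210 nt), and genes of like length had a median of -0.31. Its paralog P4HA2 was at 16.2 and 17.9 TPM with overlapping groups, and the beta subunit P4HB at 786.9 and 739.6 TPM. The log2 ratio of P4HA1 to P4HA2 fell by 1.38, from 1.23 ± 0.147 to -0.16 ± 0.266 (SD, n = 3 each; exact permutation p = 0.1, the smallest possible). Of the 10 other collagen-modifying genes listed, 9 were tested, and the single called gene was PLOD2, a lysyl hydroxylase (92.5 to 35.6 TPM, log2 fold change -1.35). PLOD2 was not called with median-of-ratios or upper-quartile scaling or with the length and expression trend removed. The median of the 9 tested genes was 0.13.

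NDRG1, a stress-induced cytoplasmic protein and a standard hypoxia marker (ENSG00000104419), was among the most abundant of the 10 genes and did not pass the test. It stood at 156.0, 79.5 and 72.6 TPM in controls and at 86.7, 90.2 and 108.7 TPM in shFAM111B cells. Control replicate 1 was above every other library, and all shFAM111B libraries lay between it and the other controls. The log2 fold change was -0.03 (SE 0.277; adjusted p = 0.934, limma), and without control replicate 1 it was 0.31 (adjusted p = 0.047, limma). The sign also turned without shFAM111B replicate 1 (0.035) or replicate 2 (0.0067) and under other scalings, so no direction can be given. Its relative NDRG2 was called lower, with 25.8, 29.4 and 20.8 TPM in controls and 8.91, 6.60 and 7.03 TPM in shFAM111B cells (log2 fold change -1.62). NDRG3 (14.8 and 13.9 TPM) and NDRG4 (7.05 and 6.85 TPM) had overlapping groups. As a log2 ratio, NDRG1 to NDRG2 was higher in every shFAM111B library, by 1.60 (exact permutation p = 0.1, the smallest possible). Over the 8 ratios computed within libraries, the Benjamini-Hochberg adjusted value was 0.1 for each.

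**Figure D3:**
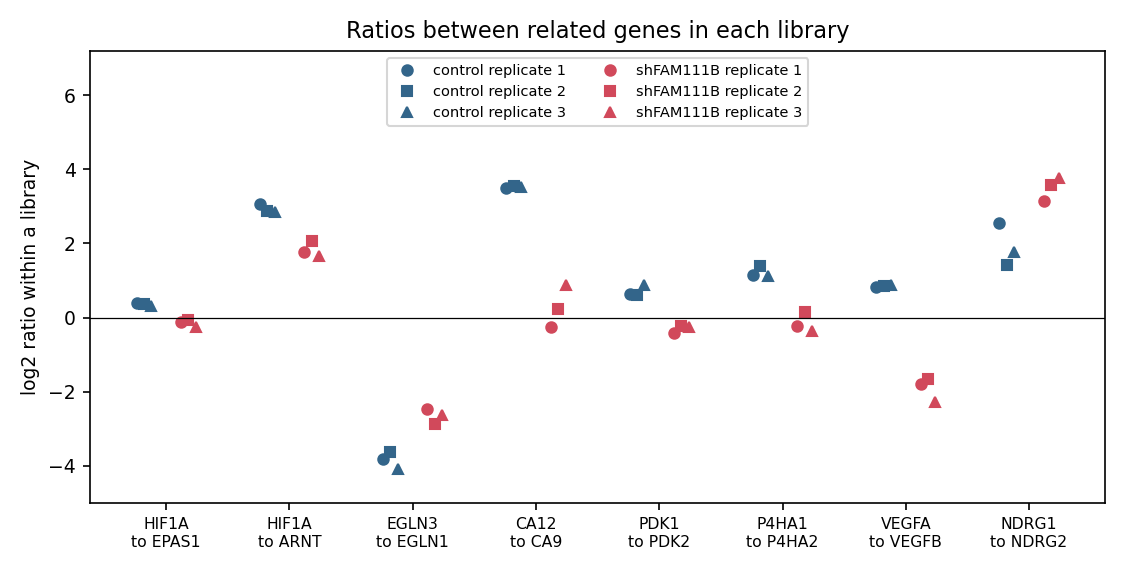
Log2 ratios of 8 gene pairs within each library, from log2(TPM + 1), with control and shFAM111B libraries as points. The groups are apart in all 8 pairs, and VEGFA to VEGFB goes from 0.85 on average in controls to -1.91 in shFAM111B cells.

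Among other HIF targets, the listed glycolytic genes went both ways. Of 20 listed genes, 16 were tested, 0 were called higher and 1 lower, with a median of -0.00076. At an adjusted p under 0.05 with no limit on fold, 4 were lower and 4 higher (limma). The gene called lower was PFKFB3, which makes the activator of phosphofructokinase (39.6 to 13.7 TPM, log2 fold change -1.46). The glycolytic enzyme ENO1 was at 1052 and 1048 TPM and PGK1 at 91.1 and 120.6 TPM, while LDHA, which turns pyruvate into lactate, was at 508.6 and 297.3 TPM (log2 fold change -0.77, short of the threshold). The glucose transporter SLC2A1 had 13.9, 14.7 and 30.3 TPM in controls and 14.1, 11.8 and 10.8 TPM in shFAM111B cells, which overlapped. ENO1, PGK1, LDHA and SLC2A1 were named after their values were seen.

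The 5 tested genes of the mitochondrial list (of 7) held 0 calls, with a median of -0.37. Of 28 other targets, 24 were tested, 0 were called higher and 4 lower, with a median of -0.46. The repressor BHLHE40 had a log2 fold change of -1.75, and GBE1, the glycogen branching enzyme, had one of -1.20. Over all 10 lists, 94 of 118 genes besides the members were tested, 6 were called higher and 21 lower, and the median was -0.35, beside -0.36 for all tested genes. These counts are near the shares over all tested genes, 6.82% higher and 23.7% lower. The same shares are the background for the count of each list. EGLN1, VHL, PDHX, SLC16A1 and GBE1 were not called under median-of-ratios or upper-quartile scaling, quantile normalization or removal of the length and expression trend, EDN1 under these 3 scalings, CA2 under the first 2, and ELOB and RBX1 with the trend removed. RAMP2 went from a log2 fold change of 1.49 to 1.03 with the trend removed, missed the P threshold and was not called.

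Fold changes across the whole table varied with transcript length, and the values of the hypoxia response genes stand beside that. The median log2 fold change was 0.43 for 1484 genes of up to 1000 nt, -0.31 for 5166 genes of 2001 to 4000 nt and -0.94 for 1030 genes above 8000 nt. The 6 called genes were all below the median of their like-length genes, with wider gaps for CA12, HIF1A, P4HA1 and EPAS1 than for VEGFA and PDK1. The 2-fold threshold fixed this side in advance, since those medians ran from -0.94 to -0.31, so lying below them is not a separate result. After removal of the length and expression trend, 2 of the hypoxia response genes were called lower, HIF1A at -1.58 and CA12 at -1.78, while P4HA1 was at -0.91. In that setting 1453 of all 14263 genes were called lower. The part of transcript length in each fold change was not tested further.

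**Figure D4:**
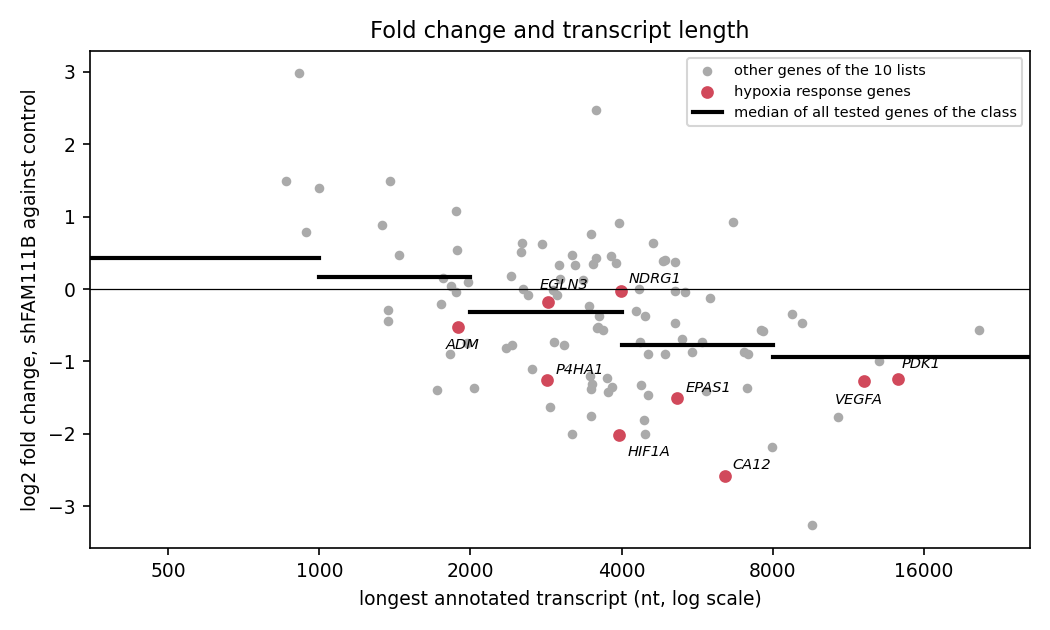
Log2 fold change against the longest annotated transcript (nt, log axis) for the tested hypoxia response genes and the other listed genes, with the median of all tested genes in 5 length classes. HIF1A, CA12, EPAS1, P4HA1 and ADM lie well below the line of their class, VEGFA and PDK1 slightly below, and NDRG1 and EGLN3 above.

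The order of levels also changed. In controls HIF1A was highest on average and above EPAS1 in every library, NDRG1 overlapped both through its control replicate 1, and then came P4HA1, VEGFA, ADM, CA12, PDK1, EGLN3 and CA9. In shFAM111B cells NDRG1 was highest at 95.2 ± 11.8 TPM (SD, n = 3), followed by EPAS1 and HIF1A, whose libraries overlap, then ADM, P4HA1 and VEGFA. EGLN3 and PDK1 overlapped below these, CA9 overlapped PDK1 and CA12 through shFAM111B replicate 1, and CA12 was below EGLN3 and PDK1 in every library. ADM thus moved from below P4HA1 and VEGFA in every control to above both in every shFAM111B library. This holds for the deposited TPM. With the length and expression trend removed, log2 fold changes were -0.47 for ADM, -0.28 for VEGFA and -0.91 for P4HA1, so ADM fell more than VEGFA. The order of levels was not computed in that setting.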

How the data were processed

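The authors deposited TPM per gene and library for 3 control and 3 shFAM111B libraries of Huh7. The submitters' processing notes name RSEM, DESeq2 and hg38, without versions or roles, and the annotation release is not given in the sources used here. The paper names a TruSeq kit and the labels a stranded mRNA kit with poly(A) selection. The deposited table also holds the authors' group means and their own comparison (fold changes and p-values), which were not used. Of the per-sample columns, 0 were without a sample.

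A test on counts was not possible, since TPM hold no depth. Log2(TPM + 1) of genes that reached 1 TPM in 3 or more libraries was compared with limma 3.58.1 (lmFit, eBayes with trend, no covariates) in R 4.3.3, with Benjamini-Hochberg adjustment over all 14394 tested genes. A gene was called at P under 0.05 (the threshold of the paper) when it also changed by 2-fold or more, and fold changes on this scale understate changes of low genes. The fit was tested before use on simulated data without a shift across all genes, so that check does not cover the shift seen here. Within-library ratios were compared by two-sided exact permutation tests.

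Gene positions and transcript lengths came from GENCODE v29 (GRCh38), which holds 58420 of the 60666 listed identifiers. Promoter windows came from RefSeq (GRCh38.p14). Python 3.11.15 with numpy 2.4.6, pandas 2.3.3, scipy 1.17.1 and matplotlib 3.10.9 made the tables and figures.

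The 10 hypoxia response genes and the lists were chosen with earlier results of these data known. Named genes were FAM111B, the 10 genes, up to 3 called genes in each direction with the smallest p per list, paralogs, markers, and the 3 genes most like HIF1A and EPAS1 in profile. Other genes named (VHL, KDR, FLT1, CALCRL, P4HB, PDHA1, SLC16A3 and the glycolytic genes other than PFKFB3) were chosen after their values were seen, as background to the 10 genes. A called gene that the rule names is not reported here and stays in the totals.

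Alternatives were no filter, at least 1 TPM in every library, a block for the replicate number, a pseudocount of 0.1, omission of each library in turn, median-of-ratios and upper-quartile scaling, quantile normalization, and removal of a loess trend (span 0.75) on length and mean expression over 14263 genes. Rescaling to nuclear protein-coding genes and leaving out shFAM111B replicates 1 and 2 were added after seeing the data.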

Additional observations from a re-analysis of the deposited data

How the results depend on the processing

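The count of 6 hypoxia response genes called lower was the same with either other filter, a pseudocount of 0.1, the replicate block, nuclear protein-coding rescaling, and without each library in turn (6 to 6). It was 3 with median-of-ratios scaling, upper-quartile scaling or quantile normalization, where VEGFA, PDK1 and P4HA1 were between -0.80 and -0.92, and 2 with the length and expression trend removed, where EPAS1 was also lost. These scalings move the median tested gene to near 0, and the cause of the shift was not tested. The 6 higher calls in the other lists became 14 with median-of-ratios or upper-quartile scaling, and the 21 lower calls became 11, 13 and, with the trend removed, 11. Further named genes that lost their call were VHL (-0.79, -0.83, -0.84 and -0.73 with median-of-ratios, upper-quartile, quantile and trend removed), NRP1 (median-of-ratios, quantile, trend removed), PLOD2 (both size scalings, trend removed), DLD (median-of-ratios), PFKFB3 and PDGFB (trend removed) and RBX1 (also with nuclear protein-coding rescaling), whereas ARNT became called with that rescaling, SLC16A3 with the trend removed (1.05) and LDHA with quantile normalization (-1.09). FAM111B, EP300, PDGFB, RAMP2, CA13 and ADM2 did not pass the filter of 1 TPM in every library and have no value there. PDGFB also did not pass the usual filter when any control was left out, and has no value there either. Across all genes, higher calls (981) were 634 with 1 TPM in every library, 2031 with median-of-ratios scaling, 1899 with upper-quartile scaling, 1694 with quantile normalization and 506 with nuclear protein-coding rescaling. Lower calls (3409) were 1799, 1910 and 1849 under the first 3 of these scalings and 1453 with the trend removed. Leaving out each library gave 734 to 1014 higher and 2998 to 3553 lower calls, and for the lists 6 to 7 and 20 to 22.

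Some uncalled genes changed sign. In the order trend removed, median-of-ratios, quantile and upper-quartile, log2 fold changes were 0.38, 0.42, 0.042 and 0.38 for NDRG1, 0.096, 0.14, 0.12 and 0.11 for EGLN3, 0.32, 0.34, 0.43 and 0.31 for NDRG3, 0.69, 0.37, 0.49 and 0.33 for NDRG4, and 0.18, 0.11, 0.13 and 0.079 for PDK2. ADM2 was at 0.21, 0.012 and 0.029 under the first 3. Without shFAM111B replicates 1 and 2, which leaves 1 library in that group and so gives values with no test of the group, NDRG1 was at 0.17, PDHX at -0.88 and ADM2 at -1.01. ENO1 was at 0.45 and P4HB at 0.37 with median-of-ratios scaling, and at 0.41 and 0.33 with upper-quartile scaling, and ENO1 was at 0.045 without shFAM111B replicates 1 and 2. Leaving out each library gave -0.031 to 0.023 for ENO1, -0.23 to 0.31 for NDRG1, -0.53 to 0.041 for ADM2 and -0.11 to 0.028 for NDRG4. The within-library ratios kept their sign with each library left out (HIF1A to EPAS1 from -0.55 to -0.45) and with a pseudocount of 0.1. They were not computed with the length and expression trend removed. That setting brought the single fold changes closer together for PDK1 and PDK2, EGLN3 and EGLN1, and VEGFA and VEGFB.

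Same-numbered libraries deviated together only weakly (correlations 0.0349 to 0.0908 for the 3 pairs), though 5 of 6 libraries were closest to their own number. The labels do not say what a shared number means, and whether such libraries were handled together was not tested. With the replicate block there were 996 higher and 3410 lower calls, and no call of a named gene changed. Depth is unknown, so no counting error can be given, and genes near 1 TPM such as CA9 are the least certain.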

Other observations

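Profiles close to those of HIF1A and EPAS1 were common. Over the 6 libraries, the protein-coding genes averaging 10 TPM or more with the log2(TPM + 1) profile most alike to HIF1A were MTFR1 (r = 0.99995), UBE3C (0.99993) and SKI (0.99989), among 7049 genes compared. UBE3C, a ubiquitin ligase, stood at 52.4, 47.3 and 47.6 TPM in controls and at 12.0, 13.6 and 10.6 TPM in shFAM111B cells. For EPAS1 they were EIF4H (0.99988), OGT (0.99988) and PIK3AP1 (0.99983). The likeness is a description with no test, since 2 groups of 3 libraries fix most of it, and 1580 genes had r over 0.99 with HIF1A and 1627 with EPAS1.

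The hepatocyte markers did not move as a block. AFP, the fetal serum protein used as a liver tumour marker, went from 7274 ± 199.9 to 23062 ± 1726 TPM (SD, n = 3 each; log2 fold change 1.66), and APOA1 and TTR, which encode secreted carrier proteins, were also called higher (1.11 and 1.04). APOB, the large lipoprotein component, was called lower (-2.27), as was HNF4A, a regulator of hepatocyte identity (-1.25). APOA1, TTR and HNF4A were not called with the length and expression trend removed, APOA1 and TTR also with nuclear protein-coding rescaling, TTR also with quantile normalization or without shFAM111B replicate 3 (0.99), and HNF4A also with median-of-ratios or upper-quartile scaling. ALB stood at 6422, 6492 and 6419 TPM in controls and at 4139, 4356 and 3988 TPM in shFAM111B cells, with no overlap.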
